A study of Mus musculus with 24 samples.

Results

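The peaks compared here are the regions of acetylated histone H3 lysine 27 (H3K27ac) in quadriceps myofibers of female mice 8 days after the last prednisone injection, set against those of vehicle-treated females. Both peak lists were taken whole and restricted to autosomes, which left 80538 of 81696 peaks at day 8 and 37614 of 38861 peaks in vehicle, together 118152 of the 469078 peaks in all 8 lists of the series. A day 8 peak was called gained when no vehicle peak overlapped it by 1 bp or more and kept otherwise, and a vehicle peak was called lost when no day 8 peak overlapped it. The mice were C57BL/6 animals by the labels and C57BL/6J by the methods, 10 weeks old when treatment began. The weekly prednisone group received 1 mg/kg prednisone by intraperitoneal injection once a week, 5 injections over 4 weeks, with vehicle on the days between, and the vehicle group received DMSO in PBS. Each group had 2 H3K27ac libraries and 1 input library, and the authors deposited a single peak list per group, so the comparison has no replicate error and no test was made. Myofibers were freed from the muscle with collagenase and are the material held back by a cell strainer, and chromatin of any other cells held back with them is read together with theirs.

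H3K27ac is placed by the acetyltransferases p300 and CBP on nucleosomes that flank active promoters and enhancers, and it turns over when these elements are switched off. Prednisone is converted to prednisolone, which activates the glucocorticoid receptor, a nuclear receptor that binds glucocorticoid response elements and recruits such acetyltransferases. In skeletal muscle, glucocorticoids are known for inducing the metabolic regulator Klf15, the cochaperone Fkbp5 and, with daily dosing, the genes of muscle atrophy.

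A glucocorticoid response element is a pair of inverted half-sites separated by a spacer of 3 bases. The full palindrome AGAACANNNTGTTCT, which reads the same on both strands, was searched in all peaks. Gained peaks held 20 copies in 65.8 Mb and kept day 8 peaks 13 in 42.6 Mb. Lost peaks held 4 in 11.6 Mb and kept vehicle peaks 4 in 14.5 Mb, and the counts were not tested against each other. Copies in day 8 peaks nearest to 3 glucocorticoid target genes described below are shown with 50 bases on either side, as the plus strand of mm10, with the element in capitals. They lay at Fkbp5 (intron, chr17:28442369-28442483, 43.7 kb into the gene from its start) in a gained peak, and at Sgk1 (promoter, chr10:21993651-21993765) and Ddit4 (intergenic, chr10:59974223-59974337, 22.5 kb upstream, written -22.5 kb from the start) in kept peaks.
Fkbp5 gained peak: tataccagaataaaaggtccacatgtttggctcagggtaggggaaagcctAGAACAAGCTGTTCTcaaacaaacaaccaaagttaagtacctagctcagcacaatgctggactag
Sgk1 kept peak: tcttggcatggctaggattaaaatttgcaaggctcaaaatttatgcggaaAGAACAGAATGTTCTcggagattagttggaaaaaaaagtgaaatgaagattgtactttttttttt
Ddit4 kept peak: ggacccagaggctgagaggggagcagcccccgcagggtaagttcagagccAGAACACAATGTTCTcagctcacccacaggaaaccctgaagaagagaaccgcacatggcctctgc

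Sequences at gained and lost peaks are shown next. They were picked as examples, the Mef2a peak among gained peaks that hold the pattern marked in it, and do not measure a difference between the sets. The Fkbp5 promoter, the 250 bases before the start in RefSeq (GRCm38.p6, chr17:28486150-28486399, minus strand), was under a gained peak, had 68.0% G or C and held 3 copies of the GC box GGGCGG, in capitals. The E-box CAGCTG, a binding letter pattern of myogenic basic helix-loop-helix factors, is in capitals in the middle 120 bases of a gained peak of 1294 bp between genes, nearest to the start of Mef2a, a MEF2 factor (chr7:67421751-67421870). The last sequence is the middle of the vehicle peak at the promoter of Kif28 (chr1:179745563-179745682), which was lost at day 8 and held neither pattern. All but the first are plus strands of mm10.
Fkbp5 promoter: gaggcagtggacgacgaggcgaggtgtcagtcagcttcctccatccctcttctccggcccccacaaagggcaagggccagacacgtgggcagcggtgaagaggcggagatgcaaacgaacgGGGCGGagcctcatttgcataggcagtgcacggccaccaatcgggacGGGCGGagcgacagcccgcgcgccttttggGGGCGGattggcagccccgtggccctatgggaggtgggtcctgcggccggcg
Mef2a gained peak: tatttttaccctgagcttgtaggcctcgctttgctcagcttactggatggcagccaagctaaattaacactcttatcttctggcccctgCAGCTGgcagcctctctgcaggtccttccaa
Kif28 lost peak: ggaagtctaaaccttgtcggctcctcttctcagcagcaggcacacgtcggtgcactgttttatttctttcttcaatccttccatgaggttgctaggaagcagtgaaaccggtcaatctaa

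The lists differed in depth and in the share of tags that fell in peaks, and both bear on every count that follows. The day 8 list rested on 39.7 M H3K27ac tags and the vehicle list on 27.5 M, with 23.8 M and 13.4 M input tags. Peaks held 25.9% of all H3K27ac tags at day 8 and 7.87% in vehicle, and without the largest peak of each list, on chromosome 2, 24.7% and 5.28%. Covered sequence was 108 Mb at day 8 and 26.1 Mb in vehicle. The findPeaks score, which counts tags without adjusting for depth or peak width, started at 16 at day 8 and at 10 in vehicle. Their part in the gains and losses was not tested.

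At day 8, most peaks lay where vehicle had none. Of the 80538 day 8 peaks, 67772 were gained, or 84.1% (Wilson 95% confidence interval 83.9 to 84.4, for counting error only), and 12766 were kept. Of the 37614 vehicle peaks, 21871 were lost, or 58.1% (57.6 to 58.6), and 15743 were kept. Gained peaks covered 65.8 Mb and kept day 8 peaks 42.6 Mb, while lost peaks covered 11.6 Mb. Of the gained peaks, 4.50% lay within 1 kb of a vehicle peak and 40.3% within 10 kb.

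Cutting the day 8 list to the 37614 peaks of highest score, the length of the vehicle list, brought gains and losses closer together. Then 28433 day 8 peaks were gained, or 75.6% (75.2 to 76.0), and 26135 vehicle peaks were lost, or 69.5% (69.0 to 69.9). The lowest score left at day 8 was 18. Ranked by fold over input instead, 29332 were gained and 27081 lost (78.0% and 72.0%), and ranked by normalized tag count, 26046 were gained and 23046 lost (69.2% and 61.3%). With lists of equal length, the excess of gained over lost peaks is the same number as the excess of kept vehicle over kept day 8 peaks (11479 and 9181 by score), since a wide day 8 peak can take in several vehicle peaks, and so it does not measure more gain than loss.

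**Figure D1:**
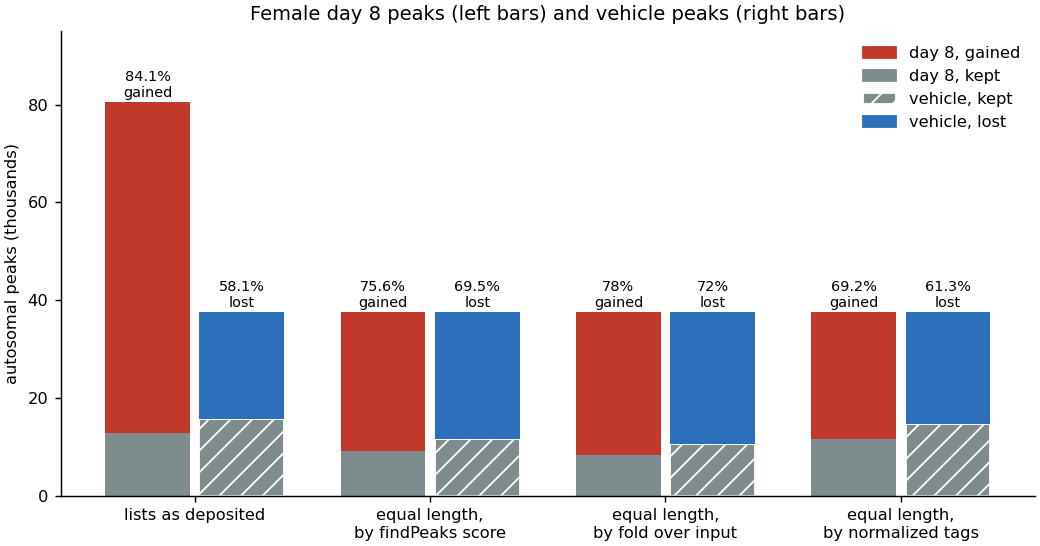
Number of autosomal peaks (axis in units of 1000) of the female day 8 list (left bar of each pair) and vehicle list (right bar), with gained peaks in red, lost peaks in blue and kept peaks in gray (hatched for vehicle), for the lists as deposited and cut to 37614 peaks each by 3 rankings. Gained peaks made up 84.1% of the whole day 8 list and between 69.2% and 78.0% at equal length; lost peaks went from 58.1% of vehicle peaks to between 61.3% and 72.0%.

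Gained peaks were mostly intronic and lost peaks were placed nearly like the genome itself. By peak center, 4.84% of gained peaks lay in a promoter (the 1 kb upstream of a transcription start and the first 100 bp after it), 9.06% in an exon, 56.8% in an intron and 27.1% between genes, against 1.25%, 2.53%, 38.2% and 56.9% of all autosomal bases. Among lost peaks these shares were 0.640%, 2.51%, 46.1% and 49.6%. Kept peaks were the promoter-rich set, with 2555 of 12766 day 8 peaks and 3207 of 15743 vehicle peaks (20.4%) in promoters. At equal length by score the promoter share was 7.60% in gained and 3.15% in lost peaks. The median distance from peak center to the nearest protein-coding start was 21.5 kb for gained, 6.59 kb for kept day 8 and 66.3 kb for lost peaks.

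**Figure D2:**
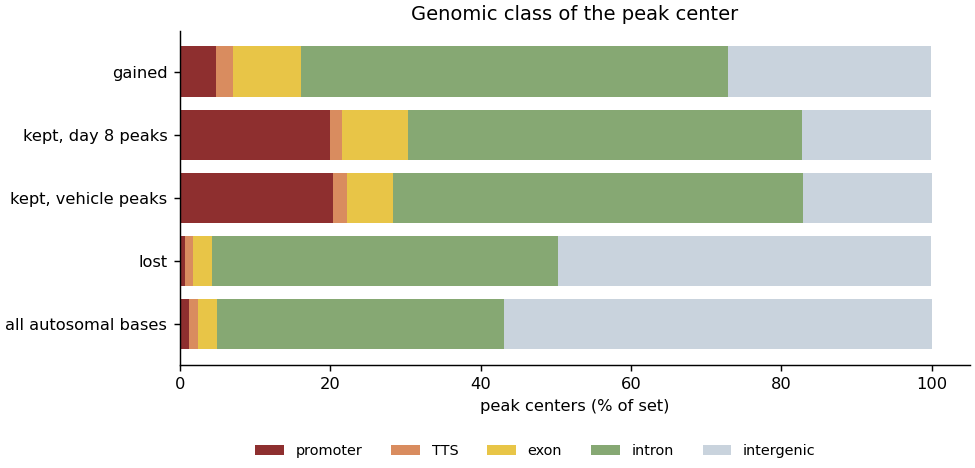
Share of peak centers, in percent of each set, in promoters, transcription termination sites (TTS), exons, introns and intergenic sequence, for gained, kept and lost peaks and for all autosomal bases. Promoters took 20.4% of kept vehicle peaks and about as much of kept day 8 peaks, 4.84% of gained and 0.640% of lost peaks, and the lost bar is the one nearest to the autosomal bases, where promoters are 1.25%.

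Kept regions were wider at day 8 than in vehicle. The median width was 2348 bp for kept day 8 peaks and 644 bp for the vehicle peaks they overlapped. In 11584 of 12766 kept day 8 peaks (90.7%) the day 8 peak was wider than the vehicle peaks inside it summed, with a median ratio of 2.66 (interquartile range 1.65 to 4.19), and 2035 joined several vehicle peaks, up to 16. Gained peaks had a median of 633 bp, close to kept vehicle peaks, and 45.8% of them had the smallest width of 500 bp. Lost peaks were small almost throughout, with 86.5% at 500 bp and none above 3513 bp.

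Domains of 5 kb or more numbered 45 in vehicle and 2689 at day 8, of which 2191 were kept peaks. All 82 day 8 peaks of 20 kb or more were kept peaks, and vehicle had 0 of that width. The widest, 67.9 kb, lay nearest to the start of Tns1, which codes for the focal adhesion protein tensin, and took in 7 vehicle peaks with 6.74 kb between them. The next lay at Zbtb16, a zinc finger gene known as a glucocorticoid target, where a day 8 peak of 52.5 kb took in 16 vehicle peaks that summed to 22.5 kb.
Muscle genes were among these domains. Mef2d, a MEF2 transcription factor of muscle, had 45.2 kb at day 8, over 5 vehicle peaks that summed to 18.0 kb. Tnnt3, the fast troponin T, had 38.7 kb over a vehicle sum of 7.66 kb, and Speg, a striated muscle kinase of the triad, 38.3 kb over 7.34 kb. Tfeb, a regulator of lysosome genes, had 37.6 kb over 9.55 kb. The nuclear factor I genes Nfic and Nfix had 36.8 and 36.1 kb over 12.9 and 9.58 kb.

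**Figure D3:**
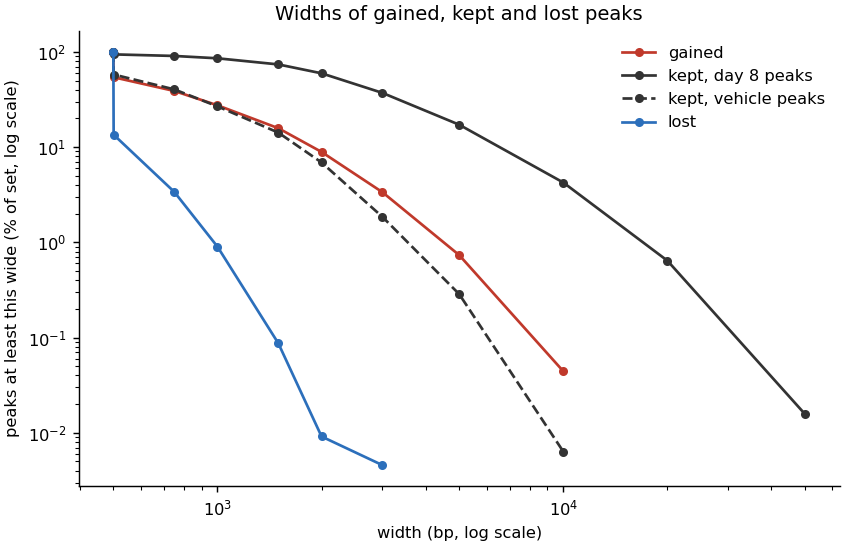
Percent of peaks (log scale) at least as wide as the value on the x axis (bp, log scale) for gained, kept and lost peaks. Kept day 8 peaks (solid black, median 2348 bp) lie far to the right of the vehicle peaks they overlap (dashed, 644 bp), the gained curve (red, 633 bp) starts near the dashed one (27.5% and 26.8% at 1000 bp) and parts from it among wide peaks (3.36% and 1.85% at 3000 bp), and the lost curve (blue) drops at the minimum of 500 bp.

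Of 20021 autosomal protein-coding genes, 7250 had a promoter peak at day 8 alone (36.2% of genes, called gained here), 4915 in both lists (24.5%, kept), 98 in vehicle alone (0.489%, lost) and 7758 in neither. A promoter can be gained because a new peak appeared or because a peak present nearby in vehicle reached it at day 8, and these were 6007 (82.9%) and 1243 (17.1%) of the gained promoters. With lists of equal length by score, 26.3% of promoters were gained, 19.7% kept and 5.34% lost. Ranked by normalized tag count, 31.7% were gained and 0.574% lost, so the number of lost promoters moved from 1070 to 115 with the ranking.
At kept promoters the peak of highest score was taken in each list, and these overlapped in 4706 of 4915 genes. In these 4706 the day 8 peak was the wider one in 97.1%, with medians of 2551 and 840 bp. In the other 209 (4.25%) the peaks lay apart, and their widths are not set against each other. Widths given below for kept genes are of these single peaks. Further vehicle peaks under a wide day 8 peak are not added to them. The gene lists below are read against these shares over all genes, and no list was tested.

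**Figure D4:**
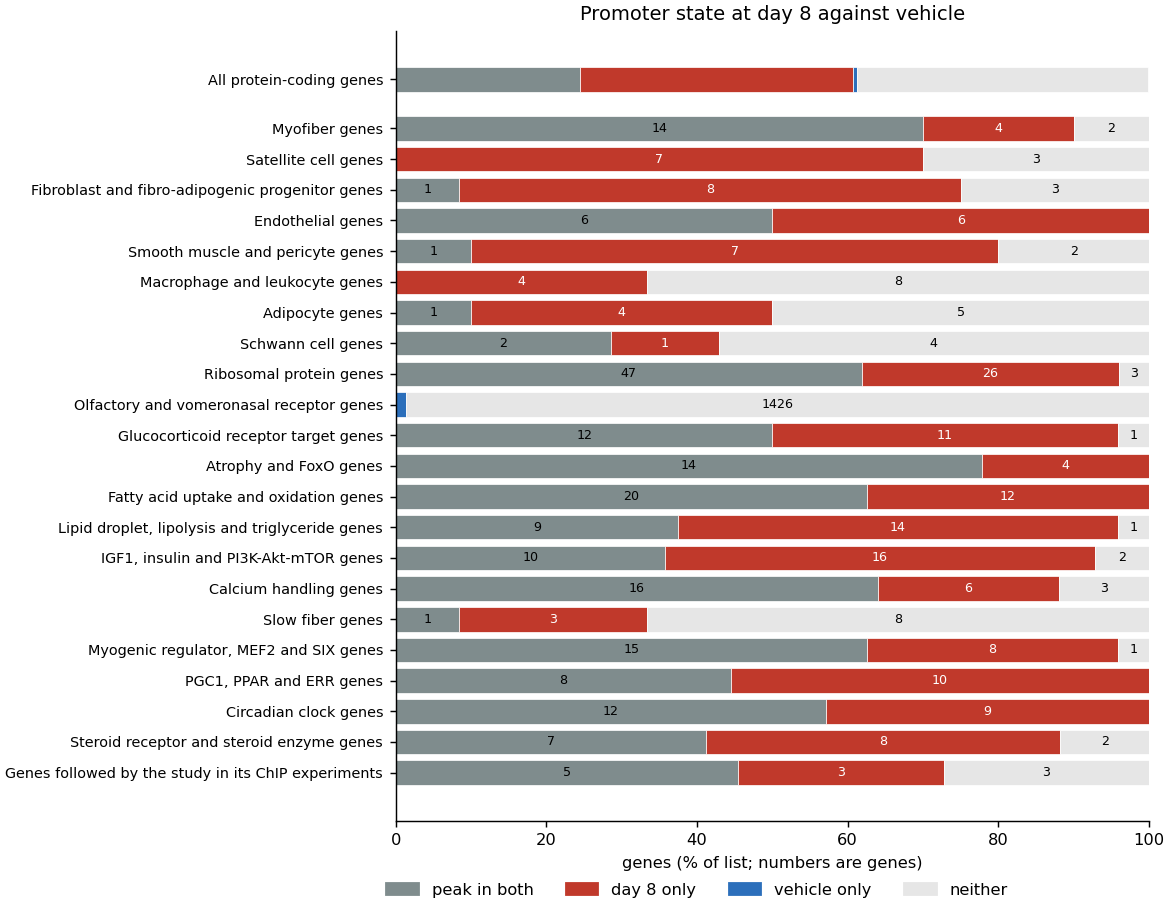
Percent of the genes of each list whose promoter had a peak in both lists (gray), at day 8 alone (red), in vehicle alone (blue) or in neither (light gray), with the number of genes in each part and all 20021 genes on top. Olfactory and vomeronasal receptor genes have most of their bar in light gray. The slow fiber list has 8 of 12 genes without a promoter peak and the fatty acid list 0 of 32, and 0 genes were lost in 21 of 22 lists.

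The glucocorticoid receptor targets are a list of 24 genes known to be induced by glucocorticoids in many tissues. They had 11 gained promoters (45.8%, against 36.2% of all genes) and 12 kept ones, and Tat, a liver gene, had none. Gained were Fkbp5, Klf15, Ddit4, Mt1, Mt2, Cebpb, Dusp1, Glul, Lcn2, Rgs2 and Mertk, and 6 of these 11 were reached by a widened peak (54.5%, against 17.1% of gained promoters over all genes). Other lists described below also had large shares, with 50.0% for atrophy, 42.9% for lipid droplet and 41.7% for fatty acid genes. For calcium handling genes it was 0%. In 11 of the 12 kept promoters the day 8 and vehicle peaks overlapped, and at Sesn1 they lay apart. All 11 were wider at day 8, as were 97.1% of such promoters over all genes. Their median was 7473 bp at day 8 against 2386 bp in vehicle. At equal length by score 10 were gained, 11 kept and 1 lost.
Klf15, a transcription factor that drives amino acid and lipid use in muscle, had a day 8 peak of 16655 bp with a normalized tag count of 991 per 10 M tags and a fold over input of 33.7. In vehicle the nearest peak began 0.166 kb downstream of its start, just outside the promoter window, and 4 separate vehicle peaks lay within 10 kb. The region was therefore marked in both groups, and the day 8 peak ran from -1.003 kb to 15.65 kb across the start.
Fkbp5, the cochaperone that lowers the hormone affinity of the receptor, had a new promoter peak of 1768 bp at day 8 with 30.7 tags per 10 M and a fold of 10.5, and no vehicle peak within 10 kb of its start. Within 100 kb of the start, day 8 had 19 peaks whose whole widths summed to 44.3 kb and vehicle 9 peaks of 6.73 kb. One of the new peaks, 18.9 tags per 10 M, holds the response element shown above.
The metallothionein genes Mt1 and Mt2, which code for metal-binding proteins, had new peaks of 2466 and 3657 bp with folds of 21.6 and 9.16. Rgs2, a regulator of G protein signaling, had a peak of 1698 bp with a fold of 20.9 that overlapped a vehicle peak beyond the promoter. Among kept genes, the peak at Sgk1, a kinase gene, measured 8205 bp at day 8 and 1403 bp in vehicle. Klf9, a transcription factor that is a direct receptor target, had 23456 and 3917 bp, and Per1, a clock gene with a glucocorticoid response, had 19496 and 7033 bp. Per1 illustrates the limit of the score, since its day 8 peak of 1104 tags per 10 M had a score of 17 and was dropped at equal length, which made the promoter count as lost.

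**Figure D5:**
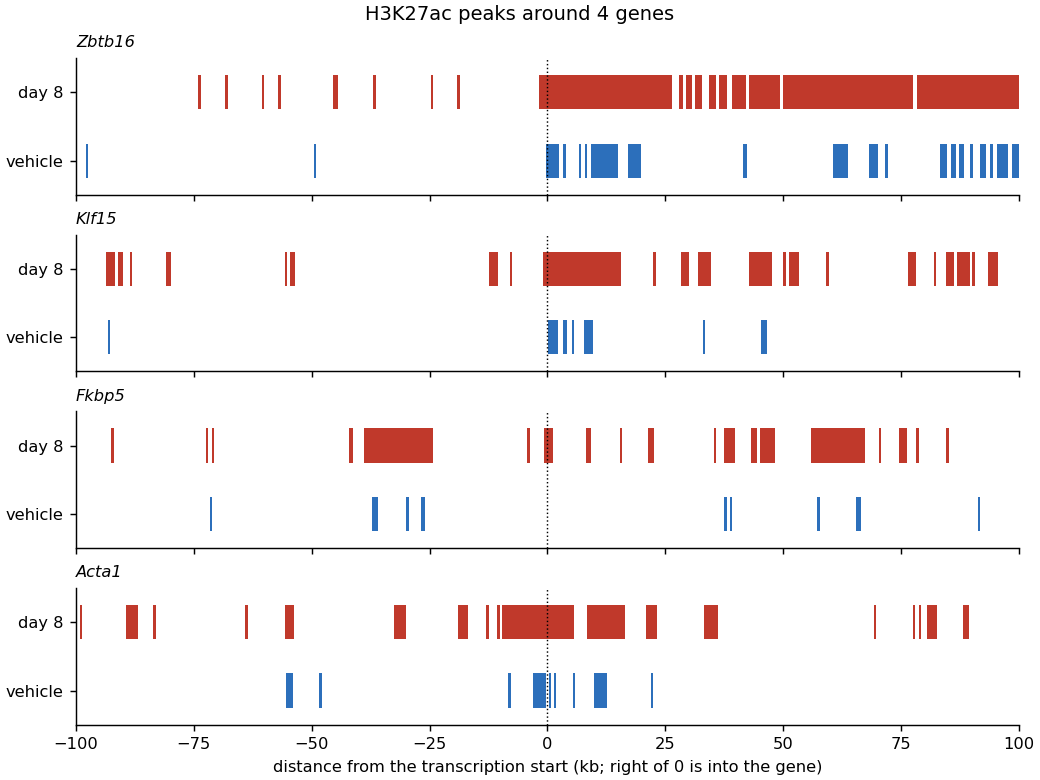
H3K27ac peaks of the day 8 list (red) and the vehicle list (blue) by distance in kb from the transcription start (dotted line, right of 0 into the gene) at Zbtb16, Klf15, Fkbp5 and Acta1, over 100 kb to either side. Around Zbtb16, 18 day 8 peaks whose whole widths summed to 130 kb stand over 20 vehicle peaks of 30.6 kb. The widest of these day 8 peaks runs from 78.33 to 130.8 kb. Its part beyond 100 kb is in the sum, while vehicle peaks that begin beyond 100 kb are not. The sums at Zbtb16 therefore cover unlike spans. At Fkbp5 only the day 8 list has a peak at the start.

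Atrophy and FoxO genes were marked in both groups. Of 18 genes, 14 were kept and 4 gained (22.2%, against 36.2% of all genes), with 0 lost. Gained were Mstn, the growth inhibitor myostatin (2790 bp, fold 22.0), Gadd45a (2541 bp), Fbxo31 (26131 bp) and Traf6 (986 bp). The ubiquitin ligase genes of atrophy, Trim63 (MuRF1) and Fbxo32 (atrogin-1), were kept, with 13886 bp at day 8 against 500 bp in vehicle and 5614 against 984 bp. The vehicle widths are of single peaks, and 4 and 2 vehicle peaks lay within 10 kb of their starts. All 12 kept promoters with overlapping peaks were wider at day 8, as were 97.1% of such promoters over all genes. At Fbxo40 and Nedd4 the peaks of the lists lay apart.

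Genes of fatty acid uptake and oxidation had 20 kept and 12 gained promoters of 32, all with a peak at day 8. The gained share of 37.5% was near the 36.2% of all genes. Gained were among others Acads, Acsl5, Eci1 and Acsl3, enzymes of acyl-CoA synthesis and beta-oxidation, whose peaks were between 1119 and 2086 bp wide with folds of 5.82 to 30.7. Pdk4, the kinase that turns off pyruvate oxidation, was gained with 6176 bp by a widened peak. Ucp3, a mitochondrial carrier, was kept with 17563 bp against 2618 bp, and Crat, carnitine acetyltransferase, with 9977 against 500 bp. Cd36, the fatty acid translocase, had peaks at separate places in the lists, of 1796 bp at day 8 and 500 bp in vehicle.
In the list of lipid droplet, lipolysis and triglyceride genes, 14 of 24 were gained (58.3%, against 36.2% of all genes), 9 kept and 1 without a peak. Gained with the highest scores were Acss2, Gpat4, Agpat2 and G0s2, the inhibitor of the lipase Pnpla2. Lpl, lipoprotein lipase, and Lpin1, a phosphatidate phosphatase, were reached by widened peaks of 5595 and 15411 bp. Pnpla2 itself was kept with 17512 bp at day 8 and 1997 bp in vehicle, and Lipe, hormone-sensitive lipase, with 13907 and 2445 bp.

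IGF1, insulin and PI3K-Akt-mTOR genes had 16 gained (57.1%, against 36.2% of all genes), 10 kept and 2 unmarked promoters of 28. Igf1r, the IGF1 receptor, had a new peak of 3476 bp with a score of 47, and Mtor one of 1900 bp. Insr and Eif4ebp1 were reached by widened peaks of 2171 and 7167 bp. Of the gained promoters 93.8% also held a peak in the male vehicle list, against 65.0% of gained promoters over all genes. High shares were not particular to this list, with 91.7% for fatty acid genes and 87.5% for steroid receptor and steroid enzyme genes. Lower ones were 64.3% for lipid droplet genes and 33.3% for slow fiber genes.
The PGC1, PPAR and ERR genes, regulators of mitochondrial and lipid genes, had 10 gained (55.6%, against 36.2% of all genes) and 8 kept promoters of 18. Ppara had a peak of 3688 bp with 114 tags per 10 M, Ppargc1a 4431 bp with 92.2 and Ppard 6980 bp with 314, each one reached from a vehicle peak outside the promoter window. Esrrb had a new peak of 1173 bp with a fold of 4.74.

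Calcium handling genes had 16 kept, 6 gained (24.0%, against 36.2% of all genes) and 3 unmarked promoters of 25. The 15 kept promoters with overlapping peaks had medians of 8324 bp at day 8 and 1582 bp in vehicle. Atp2a1, the fast calcium pump SERCA1, had 18227 and 2093 bp, Ryr1, the calcium release channel, 13090 and 843 bp, and Orai1, the pore of store-operated entry, 14620 and 1074 bp. All 6 gained promoters had new peaks, among them Slc8a3, Cacna2d1, Mcu and Stac3.
Slow fiber genes mostly had no promoter peak, with 8 of 12 in neither list, where 38.7% of all genes had none. Of these, Tnnt1, Tnni1, Casq2 and Myh7b had 6, 2, 2 and 2 day 8 peaks within 10 kb of their starts. Vehicle had 0 peaks there. Myh7, Myl2, Myoz2 and Csrp3 had 0 peaks within 10 kb in both lists. Gained were Tpm3, Atp2a2 and Myl3, and the Myl3 peak was 500 bp with 7.55 tags per 10 M and was absent at equal length by score and by normalized tag count.
Myogenic regulators and MEF2 factors and their partners had 15 kept and 8 gained promoters of 24. The gained share of 33.3% was near the 36.2% of all genes. Myog, the regulator of differentiation, had a new peak of 3785 bp with a score of 48, and Six2 one of 1679 bp. Hdac5 was reached by a widened peak of 24246 bp, and at Nfatc2 the peak of highest score, 4472 bp wide, overlapped a vehicle peak outside the promoter window. Myod1 was kept with 8965 against 1366 bp.

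Circadian clock genes had 12 kept and 9 gained promoters of 21 (42.9% gained, against 36.2% of all genes). Rora, a nuclear receptor of the clock, had more gained sequence nearest to it than any other gene, 87 peaks and 97614 bp, and a new promoter peak of 2744 bp. Peaks were assigned to the nearest start, so such a sum also depends on how far away the next starts lie. Per3, Nr1d2 and Bhlhe41 were reached by widened peaks of 2783, 7876 and 5259 bp. Dbp was kept with 17247 bp against 965 bp. At equal length by score 5 of the 21 were counted as lost, Per1, Nr1d1, Cry2, Tef and Bhlhe40, each with a day 8 score of 17 and between 9546 and 19496 bp wide, and by normalized tag count 0 were lost.
Steroid receptor and steroid enzyme genes had 8 gained (47.1%, against 36.2% of all genes), 7 kept and 2 unmarked promoters of 17. Nr3c1, which codes for the glucocorticoid receptor, was kept with 3791 bp at day 8 and 1126 bp in vehicle. Nr3c2, the mineralocorticoid receptor, was reached by a widened peak of 4372 bp with a score of 49. Hsd17b12 had a new peak of 1639 bp.

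Of 11 genes that the study followed by ChIP of the glucocorticoid receptor or H3K27ac, 3 were gained, 5 kept and 3 had no promoter peak in either list. The gained share was 27.3%, against 36.2% of all genes. This list was drawn up by the study from its own experiments on these mice. Besides Fkbp5, Cidea, a lipid droplet gene, had a new peak of 859 bp with a fold of 4.34, and Akt1, a kinase of insulin signaling, one of 3774 bp with a fold of 10.8. Slc27a1, a fatty acid transporter, was kept with 4463 bp and 168 tags per 10 M at day 8 against 500 bp and 7.99 in vehicle. Tnnc1, the slow troponin C, had 4043 bp against 638 bp, Esr1, the estrogen receptor, 4774 against 1487 bp and Pik3ca 2289 against 977 bp. Pik3c2a was close in width, with 2778 and 2850 bp, but had 95.7 tags per 10 M at day 8 and 47.6 in vehicle. Cidec, Cacna1h and Tnnt1 had no promoter peak, but 2, 4 and 6 day 8 peaks and 0 vehicle peaks lay within 10 kb of their starts.

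The 10 genes with the highest scores at new promoter peaks had peaks of 878 to 2034 bp, where the median over all gained promoters was 1628 bp. The highest score, 114, was a peak of 881 bp shared by Chchd7, a mitochondrial protein gene, and Plag1, whose starts point away from each other, with 56.7 tags per 10 M. Sra1 (score 105), Entpd6 (104), Cpsf7 and Sdhaf2, which share a peak (103), Tigd2 (101), Fam204a (100), Abhd10 (99) and Jmjd4 (98) followed. Each of the 10 held a promoter peak in the male vehicle list as well, so they are promoters that had a peak in another vehicle group. By gained sequence, Rora was followed by Septin9 (80138 bp in 45 peaks), Foxn3 (76961 bp in 67), Mn1 (76083 bp in 64) and Gse1 (74690 bp in 49). These sums were not scaled to the stretch of sequence nearest to each gene.

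Markers of the labelled cell type were present. Of 20 myofiber genes, 14 were kept and 4 gained, and the 2 without a promoter peak were Neb and Myh1. The gained share was smaller than the 36.2% of all genes, and the kept share was larger than their 24.5%. In 13 kept promoters the peaks of the lists overlapped, while at Myl1 they lay apart. All 13 were wider at day 8, as were 97.1% of such promoters over all genes. Their medians were 14075 bp at day 8 and 1602 bp in vehicle. Acta1, skeletal actin, had 15352 bp against 2778 bp, Ckm, muscle creatine kinase, 12311 against 1797 bp and Myh4, the fast myosin IIB, 18736 against 2672 bp. The vehicle widths are of single peaks, and 6, 2 and 4 vehicle peaks lay within 10 kb of these starts. Mb, myoglobin, and Cox6a2, a muscle subunit of cytochrome oxidase, were gained. At equal length by score, 2 of the 20 myofiber genes were gained, where 26.3% of all genes were. By normalized tag count 3 of the 20 were gained, where 31.7% of all genes were.

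Markers of other cells of muscle were gained as well, and in larger shares than the 36.2% of all genes in several lists. Gained were 7 of 10 satellite cell genes with 0 kept (Pax7, Cdh15, Itga7 and Sdc4 among them), 8 of 12 fibroblast and fibro-adipogenic progenitor genes (Pi16, Col1a1, Dpp4 and Ly6a), 7 of 10 smooth muscle and pericyte genes (Tagln, Kcnj8, Cspg4 and Myh11) and 6 of 12 endothelial genes with the other 6 kept (Emcn, Cdh5, Kdr and Sox18 gained). Adipocyte genes had 4 of 10 gained (Cfd, Pparg, Fabp4 and Plin1), macrophage and leukocyte genes 4 of 12 (Spi1, Cd68, Tyrobp and Cd14), and Schwann cell genes 1 of 7 (Mbp). The other 8 macrophage and leukocyte genes had no promoter peak in either list, among them Ptprc, Adgre1, Csf1r and Itgam. The same held for 5 adipocyte genes (Adipoq, Lep, Cidec, Retn and Adrb3) and 4 Schwann cell genes. It also held for 3 satellite cell, 3 fibroblast and 2 smooth muscle genes.
The gained shares moved when the lists were cut to equal length. By score, where 26.3% of all genes were gained, they were 50.0% for satellite cell, 33.3% for fibroblast, 30.0% for smooth muscle, 50.0% for endothelial, 30.0% for adipocyte genes, and 3 of 12 macrophage genes were gained. By normalized tag count, where 31.7% were gained, 4 of 10 satellite cell, 7 of 12 fibroblast, 6 of 10 smooth muscle, 6 of 12 endothelial, 3 of 10 adipocyte and 2 of 12 macrophage genes were gained. Of the gained genes named above, Myh11, Cd14 and Plin1 were not gained by score, and Pax7, Cd68, Tyrobp and Cfd were not gained by normalized tag count.
The summed normalized tag count at these promoters was 764 per 10 M at day 8 and 0 in vehicle for satellite cell genes, 204 and 8.36 for fibroblast genes, 431 and 36.3 for smooth muscle genes, 1622 and 105 for endothelial genes and 200 and 0 for macrophage genes, while for myofiber genes it was 7043 and 529. For adipocyte genes it was 637 and 45.1, and for Schwann cell genes 266 and 33.1. Each sum adds the tags of a single whole peak per gene, the one of highest score. A wide day 8 peak therefore brings in tags from outside the promoter window. A sum of 0 means that no vehicle peak met the promoter window, and vehicle peaks beyond it are not counted. Sdc4 (480 tags per 10 M) and Itga7 (215) made up most of the satellite cell sum and Spi1 (155) most of the macrophage sum, each with a widened peak that overlapped vehicle peaks outside the window. Single peaks in these lists ran from 4.28 to 515 tags per 10 M at day 8. Pax7, which defines satellite cells, had a peak of 500 bp with 8.06 tags per 10 M. Fewer or more cells of a type and less or more mark per cell cannot be told apart in bulk chromatin, and the part of these cells in the gains was not tested. Ribosomal protein genes, active in every cell, had 26 of 76 promoters gained (34.2%) and 47 kept, which is a share near that of all genes.

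Lost promoters were few and their vehicle peaks were narrow. Of 98 genes, 19 (19.4%) were olfactory or vomeronasal receptors, gene families of sensory neurons that muscle is not known to use. These families hold 1446 of the 20021 genes. Of the 1446, 1.31% were lost, against 0.489% of all genes, and 1 was gained (0.0692%, against 36.2% of all genes). The vehicle peaks at lost promoters had a median score of 10, the lowest of the list, and 78 of the 98 were 500 bp wide. The highest vehicle score among them was 18, at 4931408C20Rik (1180 bp, 41.1 tags per 10 M, fold 3.05), followed by Kif28 (16), Zfp985 (14), Rfx4 (13) and Nup210l (13). Of lost promoters, 11.2% held a peak in the male vehicle list, against 9.35% of genes without a female peak and 94.0% of kept genes.

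Sequence under the peaks separated lost peaks from the others. The middle 300 bp of gained peaks had a median of 51.0% G or C, those of kept day 8 peaks 50.7% and those of lost peaks 40.0%, where all autosomal bases had 41.9%. The E-box CAGCTG, on either strand, was present in 22.4% of gained (22.1 to 22.7), 18.3% of kept day 8 and 11.1% of lost peaks (10.7 to 11.5), against 10.8% of all 300 bp windows of the autosomes. Among windows with 45% to 55% G or C these shares were 22.0%, 21.4%, 18.6% and 16.7%, so part of the difference goes with base composition. The GC box GGGCGG was found in 10.5% of gained, 22.4% of kept day 8, 1.59% of lost peaks and 2.94% of windows, and in the same band of base composition in 5.19%, 7.67%, 3.69% and 4.63%.
For the receptor core and the MEF2 letters, the order of gained peaks and autosomal windows depended on base composition, and the full palindrome was too rare to compare. The core letters ACANNNTGT, which the full palindrome contains, were in 8.98% of gained, 7.61% of kept day 8 and 11.4% of lost peaks, against 9.82% of windows. With 45% to 55% G or C they were in 9.73%, 9.13% and 10.7%, against 8.85%. The full palindrome was in the middle 300 bp of 7 gained and 3 lost peaks (0.0103% and 0.0137%), against 0.00714% of windows. The AP-1 letters TGANTCA were in 8.94%, 8.33% and 10.1%, against 8.88% of windows (9.69%, 10.5% and 9.22%, against 8.58%, in that band), and the ERR half-site TCAAGGTCA in 0.869%, 0.744% and 0.718%, against 0.648%. The MEF2 consensus was found in 0.612% of gained, 1.16% of kept day 8 and 0.946% of lost peaks, against 0.647% of windows, and with 45% to 55% G or C in 0.576%, 1.13% and 0.388%, against 0.277%. Repeats were not masked.
At the level of genes, lost promoters also had few CpG dinucleotides. For 16010 genes with a RefSeq promoter sequence, the median number of CpG in the 250 bases before the start was 15.0 at gained, 17.0 at kept, 2.50 at lost and 3 at unmarked promoters. The GC box was in 60.4% of gained, 59.6% of kept, 21.8% of lost (14.1 to 32.2) and 20.2% of unmarked promoters, and in 44.5% of all.

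Male peak lists come from other animals and libraries and share no control with this comparison. The male vehicle list, which covers 2.76% of autosomal bases, overlapped 28.1% of gained peaks (27.7 to 28.4), 76.1% of kept day 8 peaks, 66.3% of kept vehicle peaks and 2.64% of lost peaks (2.43 to 2.86). The male day 8 list, covering 0.705%, overlapped 6.09% of gained, 54.8% of kept day 8 and 0.700% of lost peaks. The share of lost peaks met was close in size to the share of bases covered, although a peak meets a list more easily than a single base does, and the share of gained peaks met was larger. At equal length by score the male vehicle list overlapped 39.0% of gained and 11.5% of lost peaks.

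The gained and lost peaks of highest score stood apart from these patterns. Of 3 gained peaks, 2 lay in or at Sfi1 on chromosome 11 (scores 189 and 167, folds 2.33 and 2.55), and the other at chr2:98661996-98662905 had 22178 tags per 10 M and 6145 input tags. Of 3 lost peaks, 2 lay in the same Sfi1 region (scores 93 and 78) and the highest, at chr9:2999925-3000425 with a score of 330, had 1243 input tags. Such peaks have many tags in the input too, and leaving out peaks with more than 10 times the median input tags per kb of their list changed the counts to 67763 gained and 21866 lost.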

How the data were processed

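H3K27ac was measured in isolated quadriceps myofibers, 2 H3K27ac libraries and 1 input library per group. Per the labels and methods, the authors aligned reads to mm10 with Bowtie2 2.2.6 and called peaks with HOMER findPeaks in histone style against input. The sources used here do not say how replicate libraries were joined into a list. Lists were matched to groups by name. The normalized tag count is a signal that the authors deposited, per 10 M tags (10000000). The deposited findPeaks score is a tag number, and the deposited fold over input is a ratio of tags. Total and input tags of each peak, as deposited, gave the depths, at which 100% of low values were whole multiples of 1 tag. No column of samples was left unused (0). The authors' p-values were not used.

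Overlaps needed 1 bp. Classes followed HOMER's definitions on 45756 RefSeq transcripts of GRCm38.p6, and 20021 autosomal protein-coding genes (24860 starts) gave promoter states. Ties in a ranking by score were broken by normalized tag count. A gene's promoter peak is the one of highest score. Named genes were, per list, up to 4 gained members of highest score, the 10 and 5 genes of highest score among new and lost promoter peaks, the 5 with most gained sequence, the study's genes and the 3 top gained and lost peaks. Others were named after their values were seen. The members and gene lists were chosen with earlier results of these data known. Some genes and sequences are not reported here. Overlap and promoter steps were tested on simulated lists, with 7 of 7 quantities recovered and covered lengths equal to bedtools 2.31.1. Scripts ran in Python 3.11.15 with pandas 2.3.3, numpy 2.4.6, scipy 1.17.1 and matplotlib 3.10.9. Intervals are Wilson 95% intervals and cover counting error only. Alternatives changed the ranking, overlap, fold, tag or input limits, chromosomes and promoter window.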

Additional observations from a re-analysis of the deposited data

Results flagged for a closer look

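The number of autosomal peaks moved in opposite directions in the sexes. In females the day 8 list had 2.14 times the peaks of the vehicle list (80538 over 37614), and in males 0.233 times (20355 over 87199). Each sex had 1 list per group, so the difference between the sexes was not tested, and the cause was not tested.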

How the results depend on the processing

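Each of 6 results was recomputed under up to 9 other settings and 2 chosen after the data were seen (ranking by normalized tag count, and input tags per kb), and of 61 values 38 stayed close to the reported ones. Gained peaks numbered 28433, 29332 and 26046 at equal length by score, fold and normalized tag count, where fewer day 8 peaks enter. Their median width, 633 bp, was then 833, 628 and 1350 bp, and 666 bp with 50% coverage, 638 bp at a fold of 4 or more and 635 bp with the same minimum tag count. Their promoter share, 4.84%, was 7.60%, 6.09% and 9.39% at equal length, 6.51% with 50% coverage, 5.30% at a fold of 4 or more, 5.03% without peaks of very high input and 12.7% with promoters of 2 kb to either side. Gained promoters numbered 4541 at equal length by fold. Lost promoters, 98, were 1070 and 653 at equal length by score and fold, 59 with 50% coverage, 191 with peaks within 1 kb shared, 603 without peaks of very high input and 221 with wide promoters; the cause was not tested for coverage, and input tags of a peak grow with its width. Lost peaks stayed between 19629 and 27081. No paired analysis was possible because each group has a single peak list. For the same reason no replicate could be left out. Depth (27.5 and 39.7 M tags) and tags in peaks (7.87% and 25.9%) limit what vehicle can show, since a missing peak and a peak below detection cannot be told apart.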
